A study of Homo sapiens with 4 samples.

Results

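Prostaglandin synthesis, breakdown and reception were examined through 9 listed genes in CAL-27, an established human cell line from a squamous cell carcinoma of the tongue, of which 6 were measured. They were found by gene symbol in the platform annotation. Of 42152 rows (a row is the signal of the probes for 1 transcript), 18573 carried a gene name, for 15073 genes. PTGS1 had 2 rows, and PLA2G4A, PTGS2, PTGIS, PTGER2 and PTGER4 had 1 row each, which gave 7 rows. PTGES, PTGES2 and HPGD had no named row and are not analysed here. Parental cells were compared with cells of the same line that had been made resistant to cisplatin, a platinum drug that crosslinks DNA, in steps from 1e-07 M to 1e-05 M. Both groups were grown in DMEM with fetal bovine serum. Each group had 2 arrays, described by the submitters as biological replicates. Whether the resistant cells were 1 clone, and whether drug was present when RNA was taken, is not given in the sources used here.

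As background, prostaglandins are short-lived lipid signals made from arachidonic acid. The cytosolic phospholipase encoded by PLA2G4A frees arachidonic acid from membranes, and the cyclooxygenases encoded by PTGS1 and PTGS2 turn it into prostaglandin H2, the common precursor. Terminal synthases then make single products, such as prostacyclin (PTGIS) or prostaglandin E2 (PTGES and PTGES2), and HPGD encodes the dehydrogenase that inactivates them. Prostaglandin E2 acts on surface receptors, among them those encoded by PTGER2 and PTGER4, which raise cyclic AMP. In squamous carcinomas PTGS2, the inducible enzyme, is the more studied of the cyclooxygenases, while PTGS1 is regarded as constitutive in many tissues.

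The cyclooxygenase genes PTGS1 and PTGS2 make the same product and gave unlike values below, so their start regions are shown first. The sequences are from RefSeq on GRCh38.p14 and run from 250 bases before to 50 bases after an annotated start, where the table held windows for 8 of the 9 genes (none for PTGIS). PTGS1 has 2 windows on the plus strand, at chr9:122370283-122370582 and chr9:122375052-122375351, and PTGS2 has 1 on the minus strand, at chr1:186680374-186680673. Each is written 5′ to 3′ along its gene, and capitals mark matches on either strand to TATAAA, to TGACG, to TGANTCA, to CCAAT, or to a loose NF-kB core of GGG, any 5 bases and CC.
PTGS1 upstream window: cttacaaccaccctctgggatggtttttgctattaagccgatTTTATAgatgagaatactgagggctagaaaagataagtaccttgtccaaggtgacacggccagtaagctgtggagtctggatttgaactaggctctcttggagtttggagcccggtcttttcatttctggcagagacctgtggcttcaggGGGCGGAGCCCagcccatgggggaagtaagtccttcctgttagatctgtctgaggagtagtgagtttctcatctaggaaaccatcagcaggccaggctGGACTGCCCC
PTGS1 downstream window: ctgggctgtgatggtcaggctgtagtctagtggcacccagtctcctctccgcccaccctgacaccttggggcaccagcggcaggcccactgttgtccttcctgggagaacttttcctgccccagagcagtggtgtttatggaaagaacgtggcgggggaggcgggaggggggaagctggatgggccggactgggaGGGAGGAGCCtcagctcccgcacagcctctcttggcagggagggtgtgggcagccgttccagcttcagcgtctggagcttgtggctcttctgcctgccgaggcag
PTGS2 window: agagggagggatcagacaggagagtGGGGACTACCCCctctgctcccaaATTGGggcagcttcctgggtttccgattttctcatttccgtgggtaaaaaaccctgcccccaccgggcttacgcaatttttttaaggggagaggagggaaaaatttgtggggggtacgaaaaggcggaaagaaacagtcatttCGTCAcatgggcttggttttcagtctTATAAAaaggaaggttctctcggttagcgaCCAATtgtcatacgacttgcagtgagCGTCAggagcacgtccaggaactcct

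The PTGS2 window held TATAAA from position -32 (counted from the start), 2 matches to TGACG on the other strand, a match to CCAAT on each strand, and 3 overlapping matches to the loose NF-kB core. The upstream window of PTGS1 held 1 match to TATAAA, on the other strand at position -208, and 3 to the loose core, of which a pair overlapped. The downstream window of PTGS1 held 1 match, to the loose core. None of the 3 windows held TGANTCA. Among all 35116 windows of the same length, 11.5% held TATAAA, 24.6% TGACG, 7.71% TGANTCA, 58.7% the loose core and 34.6% CCAAT. These matches describe the letters only, and the arrays measured no binding and no choice of start.

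PTGS1 was the 1 member of 6 that passed the test, and it fell about 8.47-fold in the resistant cells. The values of PTGS2, which were dim, overlapped between the 2 groups. The question was which of these genes differ between resistant and parental cells. Each difference below is the resistant mean less the parental mean of log2 intensity, with the standard error of limma, a moderated linear model fitted over all 15073 genes with the brightest row standing for each gene, and a gene passed where its Benjamini-Hochberg adjusted p was under 0.05. By that rule 6.1% of all genes passed, 3.26% higher and 2.83% lower, and the median difference was -0.03 over all genes and -0.33 over the 6 members. A count of 1 in 6 is too small to be read against that share.

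The brighter row of PTGS1 (NM_000962) read 4504 and 4916 intensity units in the parental arrays and 551 and 559 in the resistant arrays. Both resistant arrays were far below both parental arrays, and the replicates of each group were close. The log2 difference was -3.08 ± 0.18 (difference ± SE, n = 2 arrays per group, limma adjusted p = 0.0165), with a 95% interval from -3.59 to -2.57. Its absolute size was at the 98.7th percentile of all genes, and its p ranked 71st of 15073. The second row of PTGS1 (NM_080591), which represents another RefSeq transcript of the same gene, read 837 and 1080.2 in the parental arrays and 55.7 and 70.8 in the resistant arrays. This row, too, was lower in both resistant arrays, with a log2 difference of -3.92 ± 0.29 when tested among all rows. Probe sequences were not examined, so the 2 rows may share signal and are not independent evidence. The nominal fold of 15.1 in the second row rests on dim resistant values, for which no background measurement was used here. In RNA from whole cultures, a fall in every cell and a loss of the cells that carry the transcript cannot be told apart. On the log2 scale the dimmer row fell further: the log2 signal of the brighter row exceeded that of the dimmer by 2.43 and 2.19 in the parental arrays and by 3.31 and 2.98 in the resistant arrays. These values did not overlap between the groups, but an exact permutation test of 2 arrays against 2 cannot go below p = 0.333. The gap depended on the dim resistant values, since on the log2(value + 50) scale the rows differed by -2.97 and -3.15.

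Under the 18 other settings tried for the test over genes the PTGS1 log2 difference lay between -3.50 and -2.97, while the call did not hold in all. Settings of the variance, the replicate block or the genes tested leave the difference fixed. Only scaling, the offset, the mean of a gene's rows and leaving out single arrays could move it. When all 42152 rows were tested together, both PTGS1 rows had an adjusted p of 0.0606, the smallest limma gave there, and 0 rows passed (7896 had an unadjusted p under 0.05). The adjusted p over genes was 0.0929 without the first parental array, 0.0969 without the second, 0.201 without the first resistant array and 0.2001 without the second, and 0 genes of the whole table passed in any of these fits. With a prior variance that follows intensity, which allows for the larger noise of dim rows, PTGS1 had an adjusted p of 5.9e-06 over genes with all arrays and at most 4.0e-04 without any 1 array, and both of its rows passed among all rows. With that prior 21.5% of all genes and 9.39% of all rows passed, and the members that passed were again PTGS1 alone.

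PTGS2, the inducible cyclooxygenase, read 63.8 and 83.5 in the parental arrays and 63.6 and 77.3 in the resistant arrays. These signals were dim, below the array medians of 141 to 149.9. Detection calls were not used, so whether PTGS2 was expressed in either group is not shown. The groups overlapped. In each group the array numbered 2 was the higher, as it was in every row of the measured members. The difference was -0.06 ± 0.24 (adjusted p = 0.902), with a 95% interval from -0.74 to 0.63, which does not meet the interval of PTGS1. Leaving out single arrays moved it between -0.25 and 0.14. Rows with a mean log2 signal between 6 and 8, as PTGS2 had, differed between the parental replicates by a median of 0.60 and between the resistant replicates by 0.43 on the log2 scale, so that a small change of PTGS2 was not detectable with these arrays.

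**Figure D1:**
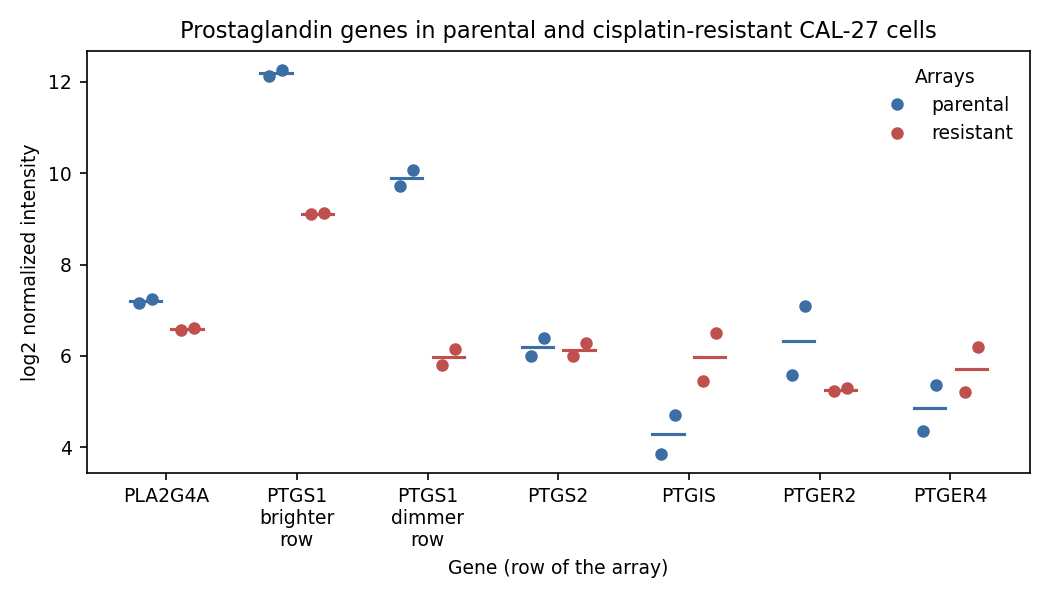
Each point is 1 array, with log2 normalized intensity on the vertical axis, blue for parental and red for resistant cells, and the short lines are means of 2 arrays. Both PTGS1 rows are lower in the resistant arrays (means of 12.20 and 9.12 in the brighter row and 9.89 and 5.97 in the dimmer), while the PTGS2 points of both groups lie between 5.99 and 6.38. Heights of different genes are not comparable, since probes differ in brightness.

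Upstream of the cyclooxygenases, PLA2G4A read 143.4 and 150.7 in the parental arrays and 94.5 and 98.3 in the resistant arrays. The groups did not overlap and the replicates were close, with a difference of -0.61 ± 0.18 and a 95% interval from -1.11 to -0.11. It did not pass over all genes (adjusted p = 0.131, and 0.373 with the prior following intensity). Groups that do not overlap were common, at 59.0% of all genes, and 4 of the 6 members were among them (PTGS1, PLA2G4A, PTGIS and PTGER2). In the gene order of RefSeq, PTGS2 and PLA2G4A on chromosome 1 are separated by 1 gene, the non-coding RNA gene PACERR. Only the order was looked at, and a link between the 2 genes was not tested.

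Downstream, PTGIS, which encodes prostacyclin synthase, read 14.5 and 25.9 in the parental arrays and 43.9 and 90.0 in the resistant arrays. Both resistant arrays were above both parental arrays, but all 4 values were dim and the replicates of each group differed by about as much as their nearest members across groups. Array 2 was the higher in each group, and with a term for the array number the SE was 0.21, without passing. The difference was 1.70 ± 0.51 (95% interval from 0.28 to 3.12, adjusted p = 0.135), a nominal 3.25-fold, and it lay between 1.18 and 2.22 with single arrays left out and was 0.71 on the log2(value + 50) scale. Rows with a mean under 6 differed between the parental replicates by a median of 0.84 on the log2 scale.

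Neither receptor gene passed. PTGER2 read 47.6 and 135.4 in the parental arrays and 37.3 and 39.4 in the resistant arrays. The resistant arrays were the lower pair, but the parental arrays differed from each other by more than the group means did, and the difference of -1.07 ± 0.57 (95% interval from -2.66 to 0.52, adjusted p = 0.310) became -0.31 without parental replicate 2 and -1.82 without parental replicate 1. PTGER4 read 20.6 and 40.8 in the parental arrays and 36.8 and 73.4 in the resistant arrays. Its groups overlapped, and the difference was 0.84 ± 0.53 (95% interval from -0.64 to 2.33, adjusted p = 0.380). Here too array 2 was the higher in each group, and with a term for the array number the SE was 0.20, without passing. The PTGER4 difference also depended on single arrays. It was 0.35 without parental replicate 1 or without resistant replicate 2, and 1.34 without either of the other arrays.

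**Figure D2:**
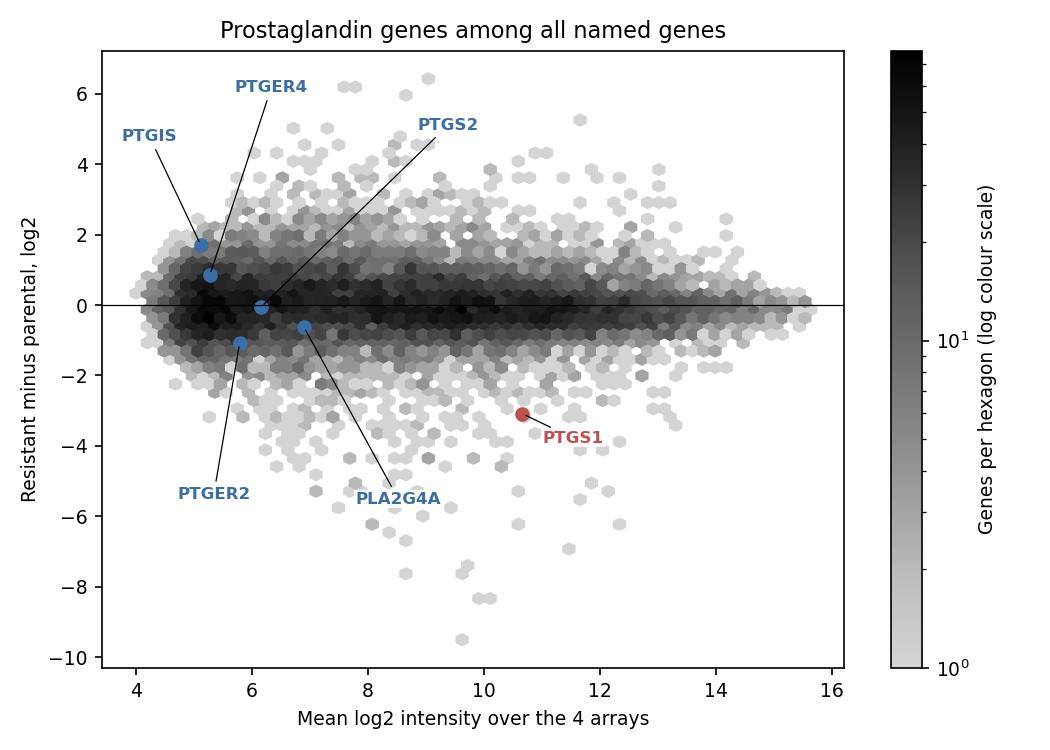
Grey hexagons count the 15073 named genes by mean log2 intensity over the 4 arrays (horizontal) and by resistant minus parental log2 difference (vertical), and coloured points are the 6 measured members, red where the adjusted p was under 0.05. PTGS1 lies at -3.08, below most genes of its brightness, while the other 5 lie between -1.07 and 1.70 at the dim end.

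Around these members, a wider list of 43 arachidonate pathway genes had 32 measured. Of these, 2 rose, 5 fell and 25 did not pass (21.9% passed, against 6.1% of all genes), with a median difference of -0.16. With the prior following intensity 5 were higher and 9 lower, where 21.5% of all genes passed. The list was chosen with earlier results of these data known, and its share was not tested against that of all genes. ALOX5, which encodes the lipoxygenase that starts leukotriene synthesis, and ALOX5AP, which encodes its membrane partner, both rose. ALOX5 had log2 signals of 7.76 and 7.06 in the parental arrays and 9.75 and 9.53 in the resistant arrays, a difference of 2.23 ± 0.32 (adjusted p = 0.0455). ALOX5AP had 5.52 and 5.67 against 8.79 and 7.86, a difference of 2.73 ± 0.38 (adjusted p = 0.0433). In both genes the resistant arrays lay above the parental arrays by more than the replicates differed. Further along that branch, LTA4H, the hydrolase that makes leukotriene B4, differed by -0.19 ± 0.19 (adjusted p = 0.581) and LTC4S, the leukotriene C4 synthase, by 0.56 ± 0.43 (adjusted p = 0.467). LTB4R2, a low-affinity leukotriene B4 receptor, fell by 1.51 ± 0.20 on the log2 scale. The high-affinity receptor gene LTB4R, which lies close to it, differed by -1.75 ± 0.32 without passing (adjusted p = 0.0638, and 0.0087 with the prior following intensity). ALOX12B, a lipoxygenase of the epidermal barrier, fell by 1.51 ± 0.22, and ALOX15, another lipoxygenase, differed by -1.83 ± 0.31 (adjusted p = 0.0575, and 0.0056 with the prior following intensity).

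The other 3 genes that fell are named because they complete the count. AKR1C1 and AKR1C2 encode aldo-keto reductases of steroids and prostaglandins, and fell by 1.90 ± 0.29 and 2.13 ± 0.31. Their sequences are so alike that their probes may share signal, and the other row of AKR1C2 differed by -0.93. AKR1C3, the prostaglandin F synthase of this family, differed by -0.03 ± 0.36 (adjusted p = 0.961). HPGDS, a prostaglandin D synthase, fell by 1.31 ± 0.20, from log2 signals of 5.75 and 5.55 to 4.26 and 4.42, but these values were dim and it did not pass with the prior following intensity (adjusted p = 0.174). Among enzymes that reduce prostaglandins, PTGR1 differed by 0.79 ± 0.18 and PTGR2 by 1.06 ± 0.28 without passing (adjusted p = 0.0925 and 0.111), and CBR1, a carbonyl reductase, by -0.68 ± 0.18 (adjusted p = 0.111). With the prior following intensity all 3 passed (adjusted p = 0.0033, 0.0258 and 0.0078). Of the remaining prostanoid receptor genes, PTGER1, PTGER3, PTGDR, PTGDR2 and TBXA2R, none passed, and their differences lay between -0.16 and 0.91. PTGER3 had 5 rows, which ranged from -0.56 to 1.15, and TBXA2R had 2 rows, at -0.29 and 0.45. The prostanoid receptor genes PTGFR and PTGIR were not measured.

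**Figure D3:**
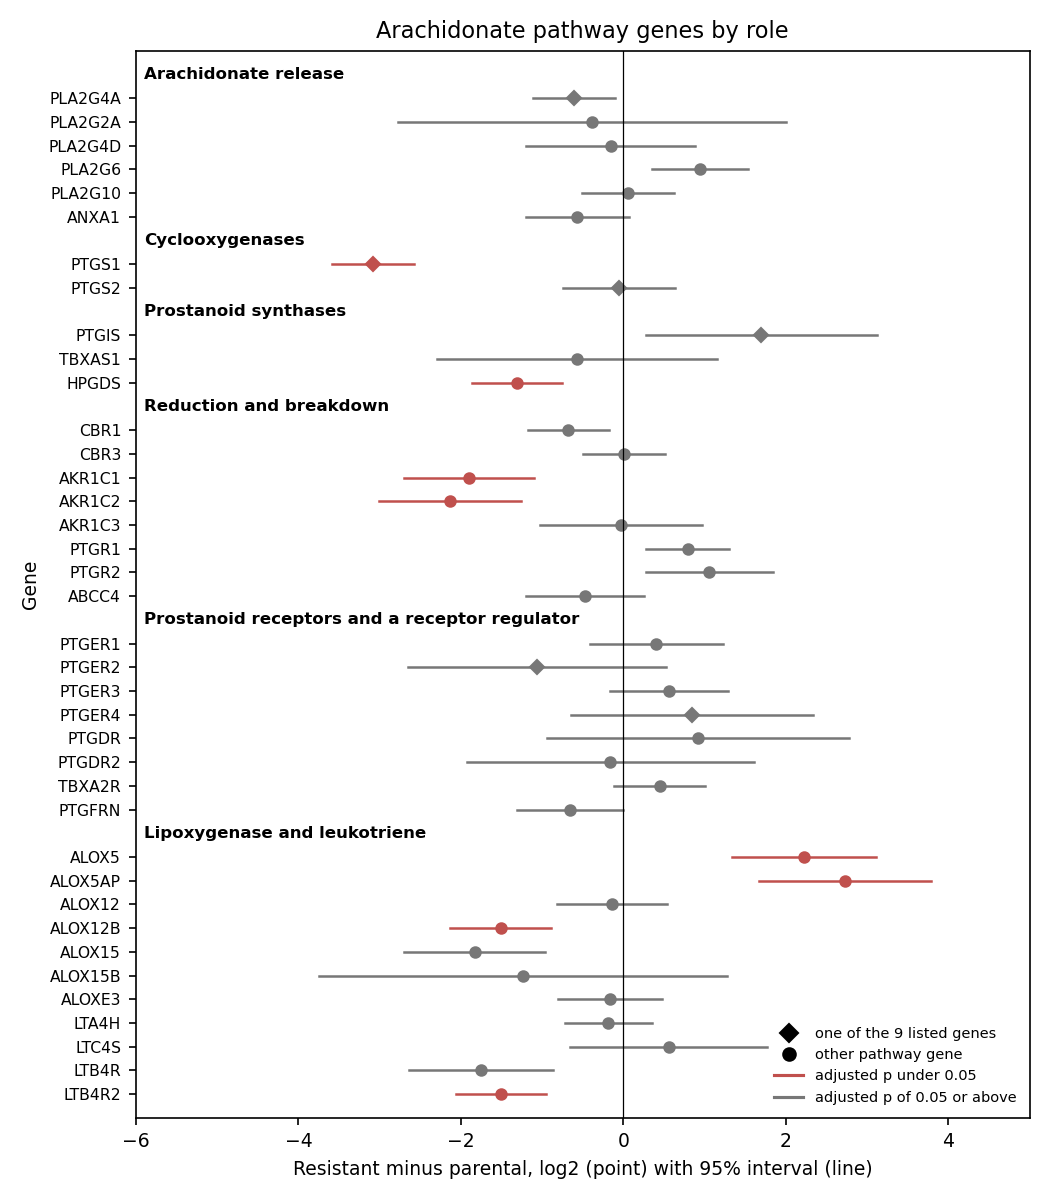
Points give the resistant minus parental log2 difference of the 6 measured members (diamonds) and the 32 other measured pathway genes (circles), grouped by role, and lines are 95% intervals from limma. The transporter gene ABCC4 is drawn under reduction and breakdown, and ANXA1, whose product restrains phospholipase A2, under arachidonate release. PTGS1 has the largest absolute difference of the genes drawn, ALOX5 and ALOX5AP are the 2 that rose, and the intervals of PTGS2, PTGER2 and PTGER4 cross 0.

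Of 28 listed genes known to act on PTGS2 transcription or on the stability of its mRNA, 24 were measured. Of these, 4 rose, 1 fell and 19 did not pass (20.8% passed, against 6.1% of all genes), with a median difference of 0.30. A mean log2 signal above 8 was found in 20 of the 24, against 8022 of 15073 genes. With the prior following intensity 6 were higher and 3 lower, where 21.5% of all genes passed. This list, too, was chosen with earlier results of these data known, and its share was not tested. The inflammatory cytokine genes IL1A and IL1B, whose products induce PTGS2 in many cells, rose. IL1A had log2 signals of 10.61 and 10.74 in the parental and 12.19 and 12.31 in the resistant arrays (1.57 ± 0.19, adjusted p = 0.0350), and IL1B had 12.11 and 12.23 against 13.37 and 13.41 (1.23 ± 0.18, adjusted p = 0.0479). TNF, another such cytokine, had 6.60 and 6.71 against 10.28 and 10.32 (3.64 ± 0.18), and JUN, a subunit of the AP-1 factor, 7.06 and 7.20 against 9.49 and 9.58 (2.41 ± 0.18). All 4 were separated between the groups by more than their replicates differed. NFATC2, a calcium-regulated transcription factor, fell by 1.44 ± 0.20 (adjusted p = 0.0452). EGR1, an immediate-early transcription factor, differed by -1.72 ± 0.28 (adjusted p = 0.0544, and 0.0028 with the prior following intensity). Of the NF-kB subunit genes, RELA differed by -0.03 ± 0.18, NFKB1 by 0.20 ± 0.19 and NFKB2 by 0.62 ± 0.18 (adjusted p = 0.124, and 0.0101 with the prior following intensity). CEBPB differed by -0.25 ± 0.18 and ZFP36, which encodes a protein that destabilises AU-rich mRNAs, by -0.82 ± 0.22 (adjusted p = 0.118, and 0.0079 with the prior following intensity).

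Genes of the cyclic AMP response, which the receptors encoded by PTGER2 and PTGER4 feed into, went both ways. Of 26 listed, 21 were measured, 2 rose, 3 fell and 16 did not pass (23.8% passed, against 6.1% of all genes), and the median difference was -0.54. With the prior following intensity 2 were higher and 6 lower, where 21.5% of all genes passed. Earlier results of these data were known when this list was chosen, and its share was not tested. SIK1, a kinase induced by cyclic AMP, fell by 2.01 ± 0.19 (adjusted p = 0.0247), with log2 signals of 12.08 and 12.24 in the parental and 10.13 and 10.18 in the resistant arrays. The growth factor gene AREG and the immediate-early gene FOS fell too, with differences of -1.73 ± 0.21 and -2.46 ± 0.31. CREB5, a transcription factor of the CREB family, rose by 4.34 ± 0.46 from parental log2 signals of 3.77 and 4.82, and NR4A3, a nuclear receptor, rose by 2.78 ± 0.36 from 4.95 and 4.11, so that both folds are nominal. The rows of NR4A3 disagreed, with differences from 0.45 to 2.78. CREM and NR4A2 differed by -0.10 ± 0.79 and 0.70 ± 0.71, and their replicates were too far apart to show a change of that size.

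By likeness of pattern, taken as the smallest Euclidean distance over the 4 arrays of log2 values centred on the parental mean, the genes nearest to PTGS2 were C22orf31, CNNM4 and UGT2B11 (distances of 0.034, 0.035 and 0.039). Their differences lay between -0.08 and -0.05. The same measure was applied to PTGS1 after its values had been seen, and gave RHOV, S100A8 and PLTP (distances of 0.114, 0.152 and 0.159), with differences of -3.11, -2.98 and -3.18. These distances rest on 4 values per gene. Genes chosen in this way have differences close to that of the gene they resemble by construction.

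The labelled cell type was checked with markers. All 10 squamous epithelial markers had a mean log2 signal above 8, and 5 of them (KRT14, KRT6A, KRT13, DSG3 and TP63) fell in the resistant arrays beside PTGS1. None rose, although EPCAM and CDH1, general epithelial markers, differed the other way by 0.92 ± 0.20 and 0.76 ± 0.18, and with the prior following intensity 7 of the 10 were lower and these 2 higher. Their summed intensity was 253000 and 248700 in the parental and 111100 and 106300 in the resistant arrays, and the part of this shift in the PTGS1 result was not tested. Of 7 fibroblast markers measured COL1A1 rose, of 6 endothelial markers CDH5 rose, and of 10 leukocyte markers and 6 mast cell or platelet markers 0 passed limma's test (1 and 0 with the prior following intensity, and 2 and 1 at an unadjusted p under 0.05). The fibroblast sums were 444 and 412 in the parental and 2111 and 1762 in the resistant arrays, and the endothelial sums 312 and 334 against 856 and 1032. Each shift rested on 1 gene: without COL1A1 the fibroblast sums were 233 and 259 against 265 and 216, and without CDH5 the endothelial sums were 297 and 309.5 against 297 and 365. Summed intensities of the mast cell and platelet markers, whose cell types are rich in PTGS1, were 808 and 572 in the parental and 844 and 961 in the resistant arrays. Of these markers only TPSAB1 had a mean log2 signal above 8 (8.72 and 7.025 in the parental, 9.06 and 9.15 in the resistant arrays). The presence of such cells was not tested. None of 7 reference genes passed (1 did without resistant replicate 1 under the prior following intensity), with a median difference of -0.001 and values of -0.45 for TBP, 1.91 for RPLP0, whose signal was dim, 0.31 for B2M and -0.22 for TUBB. Array medians lay between 141 and 149.9, and r over all rows was 0.921 and 0.946 within and 0.890 to 0.906 between groups, on log2 values.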

How the data were processed

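Double-stranded cDNA of total RNA, primed with oligo-dT, was labelled with Cy3 and hybridised to NimbleGen 1-colour arrays, per the labels' protocols. Both strands carry dye, so a gene and an antisense or overlapping transcript cannot be told apart. The deposited values are normalized intensities on a linear scale, from 8.79 to 65071. RMA is named in the submitters' processing notes, and its version, row filter and genome build are not given in the sources used here. Detection calls were not used.

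Intensities were taken to log2. Rows were named from the platform annotation (17899) or by RefSeq accession on GRCh38.p14 (674 more). The row with the highest mean stood for a gene. The groups were set against each other with limma (version 3.58.1, R 4.3.3), without covariates, with Benjamini-Hochberg adjustment at 0.05. Alternatives covered scaling, prior variance, dim genes (mean under 6), an offset of 50, the row rule, the replicate block and single arrays left out. On simulated normal values, with noise set by brightness alone, the fit was required to return the mean difference put in. That does not test its calls or p-values on these arrays. The 9 genes, the lists and the tests were chosen with earlier results of these data known. Named genes are the members and, per list, up to 4 with the smallest p. Genes beyond this (LTA4H, LTC4S, LTB4R, ALOX15, AKR1C1, AKR1C2, AKR1C3, HPGDS, PTGR1, PTGR2, CBR1 and the other receptors, IL1B, EGR1, RELA, NFKB1, NFKB2, CEBPB, ZFP36, NR4A3, CREM and NR4A2) were chosen after their values were seen. HPGD had no row, so its nearest genes were not sought. The p-values of limma combine a gene's own spread between 2 arrays per group with a prior variance drawn from all genes. For PTGS1 the SE was 0.18 in limma and 0.06 in the unmoderated test.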

Additional observations from a re-analysis of the deposited data

How the results depend on the processing

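PTGS1 was lower under each of 18 alternatives, and PLA2G4A, PTGIS, PTGER2 and PTGER4 kept their direction and did not pass in any that could be run (PTGIS, PTGER2 and PTGER4 have means under 6 and so no value with genes above 6 only). Alternatives that change only the variance, the block or the genes tested cannot move a difference. PTGS2 turned to 0.136 without parental replicate 2 and to 0.083 without resistant replicate 1 (range -0.251 to 0.136 over the fits without an array), under either prior and in both tests, with adjusted p-values from 0.781 to 0.984. The number of the 6 members that passed was 1, and 0 with the unmoderated test, with the replicate block, with all rows tested together, and without any 1 array under the constant prior (range 0 to 1 over the fits without an array, where 1 is the value with the prior following intensity). Of 7 member rows tested among all rows, 0 passed, and 2, both of PTGS1, passed with the prior following intensity, with rows above a mean of 6 only, with log2(value + 50), with the replicate block under the prior following intensity, and without any 1 array under that prior (range 0 to 2). Of all genes, 919 passed, against 3234 with the prior following intensity, 2120 with genes above a mean of 6 only, 2112 with log2(value + 50), 3500 with the replicate block under the prior following intensity, and 0 with the unmoderated test, the replicate block alone or all rows together (without 1 array 0 under the constant prior, and 2797, 2404, 1899 and 1970 under the prior following intensity, without parental replicate 1 and 2 and resistant replicate 1 and 2). The balance of higher and lower calls was 492 to 427, and 1497 to 1737 with the prior following intensity; the median of all genes was -0.03. Of the wider pathway genes 7 passed, against 14 with the prior following intensity, with or without the replicate block, and 0 with the unmoderated test, the replicate block alone or all rows together (0 to 12 without 1 array). Of the cyclic AMP genes 5 passed, against 8 with the prior following intensity, 11 with the replicate block under it, and 0 with the same 3 settings (0 to 10 without 1 array). Of the PTGS2 regulators 5 passed, against 9 with the prior following intensity, with or without the block, and 0 with those 3 settings (0 to 9 without 1 array). The replicate block rests on a shared number only: same-numbered arrays deviated together with r = 0.163 over all rows, and 2 pairs cannot settle a pairing; with the block PTGS1 had an adjusted p of 0.0804 (2.2e-06 under the prior following intensity). The block and the fits without an array leave 1 residual degree of freedom, which limits what limma can call. Adding 50 before the log gave 0.71 for PTGIS, -0.61 for PTGER2 and 0.37 for PTGER4.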
